A study of Saccharomyces cerevisiae with 14 samples.

Results

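The effect of metformin that haploid budding yeast shared between growing and resting cultures was read from all 14 libraries of the series, as the main effect of the drug with growth phase as a covariate. The 7 libraries from cultures with 50 mM metformin were set against the 7 libraries from cultures without it, and 6097 of 6470 features had enough reads to be tested. The cultures had been sampled in mid exponential or late stationary phase in synthetic complete medium, with 4 libraries for each treatment in the exponential and 3 in the stationary phase. In these data 1 gene, the acetate transporter gene ADY2, rose in the main effect at an adjusted p under 0.05, which is 0.0164% of the genes tested, and 0 genes fell. With same-numbered libraries as a block, ADY2 was not called.

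All groups carried the same genotype. It is MATa with his3D::kanMX4, a PDC1-RFP fusion marked with CaURA3MX4, and can1D::STE2pr-SpHIS5, and the labels also list lyp1D, LEU2, his3D1 and ura3D0 for this strain. Metformin is a biguanide used against type 2 diabetes. Replicates are not labelled as separate cultures, and p-values therefore cover only the variation among these libraries, which could be technical.

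Budding yeast ferments glucose while it grows. When glucose runs out, cells derepress genes for the uptake and use of acetate, ethanol and other non-fermentable carbon through the kinase Snf1, the yeast relative of AMPK, and through activators such as Cat8 and Adr1, and they then enter stationary phase, where chronological lifespan is measured as survival without division. Metformin is studied in many organisms for its action on mitochondrial respiration and AMPK, and in yeast it has been linked to metal homeostasis. Ty elements are retrotransposons of yeast that copy themselves through an RNA intermediate, and the series title names their dynamics.

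Gene counts summed to 43897221 to 59443572 per library. TMM scaling factors lay far apart between the phases, from 1.35 to 1.52 in exponential and from 0.492 to 0.744 in stationary libraries, so levels set side by side across phases depend on this scaling and were not tested. MATa markers summed to 1239 CPM (counts relative to the TMM-scaled library size) in exponential cultures without metformin and 152 CPM in stationary cultures without it, and 0 of 6 markers were at 0. Markers of sporulating diploid cells summed to 28.8 and 130 CPM in the same groups and to 29.3 and 141 CPM with metformin. CAN1, which the genotype gives as replaced, had reads in every group, with means of 21.5 and 21.2 CPM in exponential cultures without and with metformin. Mitochondrial 15S rRNA made up 0.128% of gene counts in exponential metformin library 4 and 0.0167% to 0.0251% in the other exponential libraries.

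Sequences around the start codons of 3 genes are shown as examples of genes called in the main effect or within a phase. ADY2 was called in the main effect, FIT2 had the largest called log2 fold change in exponential cultures and TRR1 had the lowest p in stationary cultures. Each runs from 250 bases before the start codon to the first 50 bases of the gene in the R64 reference, 5′ to 3′ on the gene's strand, and capitals mark the motif matches listed after the sequences.
ADY2 (R64, chrIII:133075-133374, minus strand): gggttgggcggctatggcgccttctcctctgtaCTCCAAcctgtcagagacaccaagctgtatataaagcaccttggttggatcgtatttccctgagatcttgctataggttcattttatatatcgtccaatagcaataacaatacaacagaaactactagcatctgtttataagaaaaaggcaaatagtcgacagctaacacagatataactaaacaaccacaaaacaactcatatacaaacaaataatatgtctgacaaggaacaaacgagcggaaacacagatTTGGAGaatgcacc
FIT2 (R64, chrXV:1059281-1059580, plus strand): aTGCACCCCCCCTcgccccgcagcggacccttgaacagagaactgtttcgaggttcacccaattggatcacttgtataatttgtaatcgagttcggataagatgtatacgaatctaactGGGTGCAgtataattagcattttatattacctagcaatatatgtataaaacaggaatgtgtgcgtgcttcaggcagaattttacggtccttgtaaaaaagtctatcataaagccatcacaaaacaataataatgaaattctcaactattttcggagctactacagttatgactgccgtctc
TRR1 (R64, chrIV:1183049-1183348, plus strand): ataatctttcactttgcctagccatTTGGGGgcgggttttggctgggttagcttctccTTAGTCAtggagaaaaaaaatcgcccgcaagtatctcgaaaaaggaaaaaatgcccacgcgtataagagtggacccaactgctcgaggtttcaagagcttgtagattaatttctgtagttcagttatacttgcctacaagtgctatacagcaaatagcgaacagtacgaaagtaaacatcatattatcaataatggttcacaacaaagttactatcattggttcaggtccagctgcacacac

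The motifs were searched on both strands and were chosen with the genes' values known. The set was narrowed after matches had been seen: the Cat8 and Sip4 element, the Mig1 site and other spellings of the Aft core were searched at first and are not reported here, so the capitals mark the retained motifs alone. The core of Adr1, written TTGGAG or TTGGGG, had 2 matches in the ADY2 window, 1 before and 1 after the start codon, and was present in 16.4% of 6013 such windows. The FIT2 window held 2 matches to TGCACCC, a core of the iron regulators Aft1 and Aft2 that 1.3% of windows held. FIT2 also had 1 match to the stress response element AGGGG (21.6% of windows), next to the first of them and without overlap. The TRR1 window held 1 match to the element of the oxidative stress regulator Yap1, TTACTAA or TGACTAA, which 10.9% of windows held, and 1 Adr1 core. A match says that the letters are present in the window and nothing about binding.

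ADY2 (YCR010C, R64 chromosome III, 132273 to 133124) encodes a plasma membrane transporter for acetate. Exponential cultures without metformin had 0.773, 0.837, 0.596 and 0.631 CPM, and those with metformin had 1.38, 1.12, 1.69 and 1.40 CPM. Stationary cultures without metformin had 984, 941 and 759 CPM, and those with metformin had 1613, 1296 and 1824 CPM. All libraries with metformin lay above all libraries without it in both phases, although the level went from 44 to 58 reads in an exponential control library to 24641 to 40869 reads in a stationary one. ADY2 rose by a log2 fold change of 0.90 in the main effect (SE 0.11, adjusted p = 0.00762 in edgeR's quasi-likelihood test), which is 1.86-fold. The exact permutation test of the metformin labels within phases gave p = 0.00143, two-sided, the smallest that its 1400 arrangements allow. TRK2 and YDR034C-D, which were not called, had the same permutation p. It follows from the lack of overlap, and for ADY2 it is not adjusted for the choice of this gene among 6097 features. The call was lost with a replicate block, at a log2 fold change of 0.88 and an adjusted p of 0.176 with phase and number and of 0.0713 with the number alone, and against a change of 1.2-fold, at an adjusted p of 0.0569 (edgeR).

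Taken phase by phase, the log2 fold change of ADY2 was 0.98 in exponential cultures (SE 0.17, adjusted p = 0.0455, edgeR) and 0.82 in stationary cultures (SE 0.16, adjusted p = 0.0921, edgeR). The difference between phases was -0.16 (SE 0.23, unadjusted p = 0.488, edgeR). In exponential cultures 6 genes were called (0.0984% of those tested), and in stationary cultures 3 genes were called (0.0492%). With same-numbered libraries of a phase as a block, a fit added after the values were seen, 4 and 10 genes were called, and ADY2 in exponential cultures stood at 0.98 with an adjusted p of 0.543 (edgeR).

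The 2 relatives of ADY2 in yeast, ATO2 and ATO3, encode transporters linked to ammonium export. ATO2 ranged from 2.58 to 8.42 CPM in exponential cultures without metformin and from 3.15 to 10.1 CPM with it, and from 1304 to 1437 and from 1315 to 1683 CPM in stationary cultures. Its groups overlapped in both phases, and its main log2 fold change was 0.08 (SE 0.25, adjusted p = 0.9995, edgeR). ATO3 had a main log2 fold change of 0.12 (SE 0.13, adjusted p = 0.9995, edgeR), with groups that also overlapped in both phases. The effect of ADY2 was not tested against theirs.

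**Figure D1:**
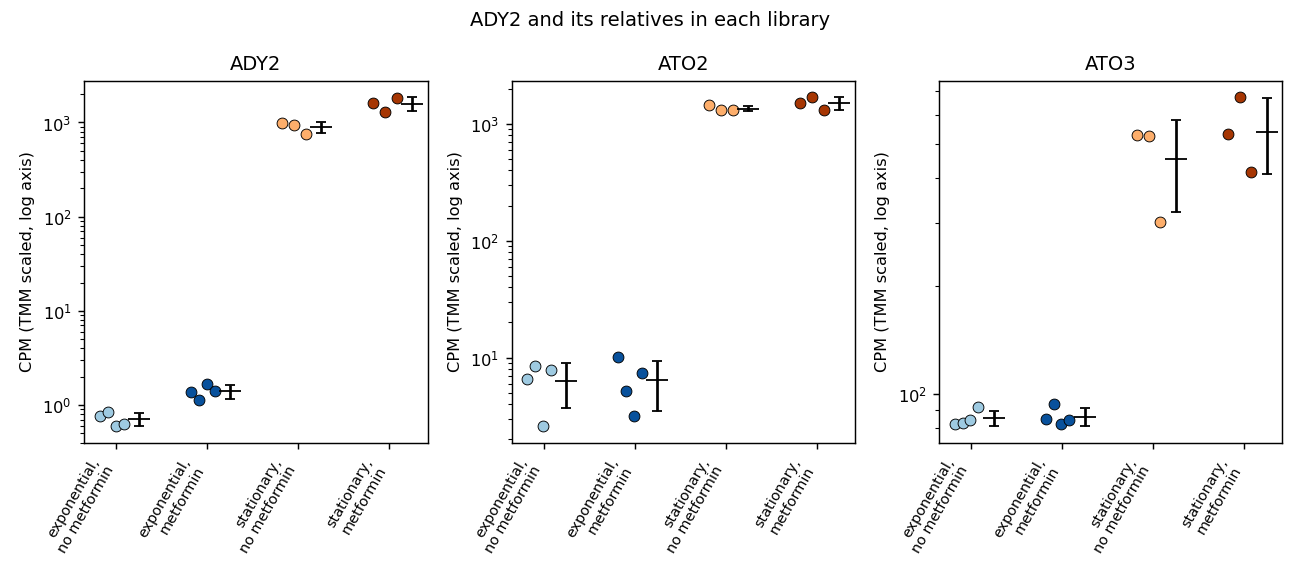
ADY2, ATO2 and ATO3 in every library, in CPM on a log axis, for exponential and stationary cultures without and with metformin (n = 4, 4, 3 and 3); points are libraries, and horizontal marks with bars are means ± SD. For ADY2 the metformin libraries lie above the control libraries in both phases, and for ATO2 and ATO3 they overlap.

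ADY2 belongs to a list of 25 genes of gluconeogenesis, the glyoxylate cycle and acetate use, which was drawn up with its value known. ADY2 was the only member called, and all 25 had a positive main log2 fold change, where 56.2% of all genes tested did (32.3% with total counts in place of TMM). The median over the list was 0.14, with 0.07 in exponential and 0.26 in stationary cultures, beside 0.01 for all genes tested. Without stat_control 3 the main median was 0.052. Members of a list can move together across libraries. The median deviation of this list from the group mean varied among libraries of a group with an SD of 0.26. YAT1, a carnitine acetyltransferase, stood at 0.30 (SE 0.11), and the alcohol dehydrogenase ADH2 stood at 0.27 (SE 0.12) in log2 fold change. FBP1 and PCK1, the committed enzymes of gluconeogenesis, stood at 0.31 (SE 0.16) and 0.23 (SE 0.16), and the malate synthase MLS1 stood at 0.32 (SE 0.18). None of the other members passed the test. Members named beside ADY2 had p of 0.0173 or more before adjustment, and these genes, chosen after their values were seen, stand as a description.

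Before adjustment, 204 genes (3.35% of those tested) had p under 0.05, of which 154 (2.53%) were higher and 50 (0.82%) lower with metformin. With no effect a fraction of about 0.05 would be expected, so 204 genes are no more than that. The share of all genes with a positive value depended on the scaling, at 56.2% with TMM and 32.3% with total counts. The middle of the distribution was narrow. From the 5th to the 95th percentile the main log2 fold change ran from -0.15 to 0.21, and its median SE was 0.083. In all, 57 genes had a main effect of over 1.5-fold in either direction.

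The genes of lowest p after ADY2 are given as values, since none of the 19 passed (adjusted p = 0.9995 for each, edgeR). Of the 20 genes with ADY2 included, 18 had a positive and 2 a negative log2 fold change, and 17 were positive in both phases. Genes picked by low p of the main effect tend to have like signs in both phases, so these counts describe the selection. Libraries with and without metformin did not overlap for 6 of the 20 in exponential cultures, for 17 in stationary cultures and for 3 in both. The 20 were picked on these same values, so the counts without overlap describe the selection too. Of all genes tested, 0.115% were apart and higher in both phases, and the share apart in each single phase was not counted.

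Several of the 20 encode transporters or membrane enzymes. VMR1, an ABC transporter of the vacuole, ranged from 77.8 to 89.4 CPM in exponential cultures without metformin and from 94.7 to 127 CPM with it, and from 66.2 to 90.0 and from 89.1 to 111 CPM in stationary cultures. Its groups were apart in exponential and overlapped in stationary cultures, with a main log2 fold change of 0.39 (SE 0.09). TRK2, a potassium transporter, ranged from 37.1 to 40.04 CPM without and from 41.3 to 44.5 CPM with metformin in exponential cultures, and from 48.1 to 55.1 and from 60.02 to 84.2 CPM in stationary cultures. Its groups did not overlap in either phase, and its main log2 fold change was 0.26 (SE 0.08). The proline permease PUT4 stood at 0.43 (SE 0.12). FRE2, a ferric reductase, stood at 0.47 (SE 0.13), made up of 0.82 in exponential and -0.01 in stationary cultures.

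INO1, the inositol-3-phosphate synthase that starts inositol synthesis, had 16.3, 18.0, 19.9 and 20.8 CPM in exponential cultures without metformin and 17.6, 21.3, 19.2 and 29.2 CPM with it. In stationary cultures it had 65.4, 64.4 and 57.7 CPM without and 122, 107 and 118 CPM with metformin. The exponential groups overlapped and the stationary groups did not, and the main log2 fold change was 0.51 (SE 0.13), with 0.22 in exponential and 0.89 in stationary cultures (adjusted p = 0.0668 in stationary and 0.0199 there with the replicate block, edgeR). Across the 22 genes of inositol and phospholipid synthesis the median was 0.05, and 0 were called.

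Some others of the 20 act on DNA or telomeres. DIN7, a mitochondrial nuclease, stood at a main log2 fold change of 0.43 (SE 0.11), and TOP3, a DNA topoisomerase, stood at 0.30 (SE 0.08). CDC13, which binds the single-stranded end of telomeres, ranged from 14.5 to 17.2 CPM without and from 15.7 to 19.4 CPM with metformin in exponential cultures, and from 15.8 to 17.8 and from 19.2 to 21.7 CPM in stationary cultures, with a main log2 fold change of 0.22 (SE 0.06). TEN1, its partner in the same complex, ranged from 7.94 to 9.94 CPM without and from 6.97 to 8.68 CPM with metformin in exponential cultures, and from 21.5 to 24.5 and from 16.98 to 20.98 CPM in stationary cultures, with a main log2 fold change of -0.23 (SE 0.07). For both genes the exponential groups overlapped and the stationary groups did not. STN1, the other subunit and chosen after its value was seen, stood at -0.01 (SE 0.06).

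The remaining genes of the 20 were a mixed set. SLZ1, a subunit of the complex that methylates mRNA in meiosis, stood at 0.64 (SE 0.17) at levels of 0.281 to 1.22 CPM in exponential and 17.8 to 34.5 CPM in stationary cultures. BSC4 stood at 0.48 (SE 0.15), and YCL048W-A stood at 0.66 (SE 0.20). YLR108C stood at 0.38 (SE 0.11), made up of 0.10 in exponential and 0.77 in stationary cultures. KSH1, a small protein of the early secretory pathway, was the second gene with a negative value, at -0.15 (SE 0.05). The other 5 of the 20 were gag-pol genes of Ty elements.

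Another reading, not adjusted for the number of genes, asks which genes had metformin libraries wholly above or wholly below the controls in both phases. There were 7 genes higher in both phases, 0.115% of those tested, and 0 genes lower in both, while 6 genes were apart in opposite directions (0.0984%). The 7 were ADY2, TRK2, the Ty genes YDR034C-D and YOR142W-B, YDL109C, CSM4, which acts in meiotic chromosome movement, and SNT1, a subunit of the Set3 histone deacetylase complex. Their main log2 fold changes were 0.90, 0.26, 0.27, 0.53, 0.18, 0.79 and 0.08 in that order. The 6 in opposite directions were YDR541C, the pheromone gene MFA2, YHL048C-A, the cell wall mannoprotein gene CWP2, SBH1, a subunit of the Sec61 translocon, and VPS71, a subunit of the SWR1 chromatin remodeler. CWP2 ranged from 1640 to 1704 CPM without and from 1235 to 1558 CPM with metformin in exponential cultures, and from 56.9 to 77.5 and from 87.3 to 95.03 CPM in stationary cultures. These genes were chosen after their values were seen. With 1400 arrangements of the labels within phases, a fraction of about 0.00143 of genes is expected to be apart in the same direction in both phases under shuffled labels. The same fraction is expected in opposite directions. The 7 genes, 0.115% of those tested, are no more than this and are listed as a description. The counts were not tested against that.

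Effects in the phases were not positively correlated gene by gene. Over all 6097 genes tested, low ones included, the Pearson correlation between the exponential and the stationary log2 fold change was -0.35 and the Spearman correlation was -0.05. Over the 4282 genes with a mean of at least 10 CPM in every group, they were -0.02 and 0.01, as a description across genes, which share the same libraries. Over 1.5-fold lay 9 of these genes in exponential and 25 in stationary cultures, and 0 of them were over 1.5-fold in the same direction in both. ADY2 is outside this set because of its low exponential level.

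**Figure D2:**
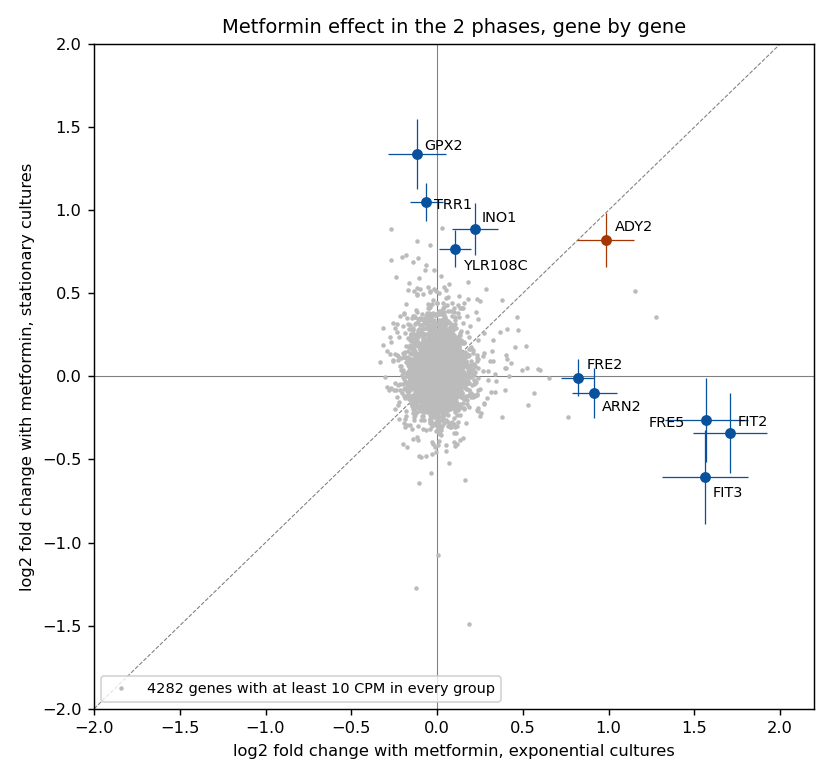
Log2 fold change with metformin in exponential (horizontal) and stationary cultures (vertical). Grey points are the 4282 genes with at least 10 CPM in every group, and the pair of grey points at the upper right are the mitochondrial rRNAs. Among exponential libraries both rRNAs were high in exp_metformin 4 alone, at 0.128% (15S) and 0.0820% (21S) of gene counts. Coloured points with bars are named genes with their SE whatever their level, and the dashed line marks equal effects. ADY2 lies near the line of equal effects at 0.98 and 0.82, and the other genes labelled in the plot lie farther from it.

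Every other gene called within a phase had a value near 0 or of the other sign in the other phase. TRR1, the cytoplasmic thioredoxin reductase, had 278, 275, 308 and 279 CPM in exponential cultures without metformin and 280, 273, 276 and 264 CPM with it. It had 34.7, 35.3 and 39.4 CPM in stationary cultures without and 84.4, 60.2 and 82.1 CPM with metformin. The exponential groups overlapped and the stationary groups were wide apart. TRR1 rose in stationary cultures by 1.05 (SE 0.12, adjusted p = 0.00213, edgeR), stood at -0.06 in exponential cultures, and was the 1 gene called for the difference between phases, 0.0164% of those tested, at 1.11 (SE 0.15, adjusted p = 0.0243, edgeR). That call was lost without any 1 of 11 libraries and held without exp_metformin 3, stat_control 3 or stat_metformin 2, with adjusted p between 0.056 and 0.156 where it was lost, and it was lost with total counts in place of TMM (adjusted p = 0.137, edgeR). Before adjustment, 338 genes (5.54%) had p under 0.05 for the difference. Its main log2 fold change of 0.41 (SE 0.16, adjusted p = 0.9995, edgeR) averages these unlike values, and that of its mitochondrial paralog TRR2 was -0.03 (SE 0.07).

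GPX2, a glutathione peroxidase, stood at -0.12 in exponential cultures and rose by 1.34 in stationary cultures (SE 0.21, adjusted p = 0.0355, edgeR). YLR108C rose by 0.77 in stationary cultures (SE 0.11, adjusted p = 0.0206, edgeR). Across the 33 genes of oxidative stress defence the medians were -0.04 in exponential and 0.14 in stationary cultures, and the main median was 0.03 (-0.02 with total counts).

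The other genes called in exponential cultures belong to iron uptake. FIT2, a cell wall mannoprotein that holds siderophore iron, had 16.9, 18.9, 13.5 and 14.6 CPM in exponential cultures without metformin and 63.8, 59.3, 42.0 and 43.6 CPM with it. In stationary cultures it had 281, 252 and 139 CPM without and 145, 176 and 210 CPM with metformin. The exponential groups were wide apart and the stationary groups overlapped, with log2 fold changes of 1.71 (SE 0.21, adjusted p = 0.00503, edgeR) and -0.34 (SE 0.24). Its relative FIT3 stood at 1.56 and -0.61, the reductase FRE5 at 1.57 and -0.26, the siderophore transporter ARN2 at 0.92 and -0.10, and FRE2 at 0.82 and -0.01 in exponential and stationary cultures. FIT2 had the lowest adjusted p of these 5 for the difference between phases, 0.0567 in edgeR, so the difference was not called for any of them. With the replicate block the exponential call of FIT3 was lost (adjusted p = 0.0821, edgeR) and those of the other 4 were kept.

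The iron regulon, 33 genes driven by Aft1 and Aft2, drew its main value from exponential cultures. Its main median was 0.22, the second highest of 44 lists, and 28 of 33 members were positive, yet 0 were called. In both phases 15 members were positive, and 5 with total counts, beside 28.3% and 12.3% of all genes tested. Among libraries of a group, the list's median deviation from the group mean had an SD of 0.14. The median was 0.27 in exponential and 0.02 in stationary cultures, and with total counts the stationary value was -0.15, where all genes stood at -0.13.

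Ty genes had the highest main median of the 44 lists with TMM scaling. Of 90 such features listed, 45 were tested, of which 44 had a positive main log2 fold change and 39 were positive in both phases, where 28.3% of all genes tested were. The median was 0.25, with 0.15 in exponential and 0.41 in stationary cultures, and 0 were called. Among libraries of a group, the median deviation of Ty genes from the group mean had an SD of 0.19. The copies share sequence, and the gag and gag-pol genes of an element overlap by 1317 to 1323 bases. Reads cannot be placed well on single copies, so family sums are given. Reads without a unique alignment, 6.11% to 6.84% in exponential and 1.12% to 1.40% in stationary libraries, were not counted for any gene. The sums therefore hold only the part of Ty reads that was assigned to single genes.

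Ty2, summed over 20 genes, had 124, 114, 134 and 133 CPM in exponential cultures without metformin and 134, 134, 148 and 169 CPM with it. In stationary cultures it had 174, 189 and 208 CPM without and 223, 208 and 288 CPM with metformin. The groups overlapped at their edges in both phases. The main log2 fold change was 0.26 (SE 0.08, unadjusted p = 0.00715, adjusted p = 0.9999 over 6056 features, edgeR), and the exact permutation test within phases gave p = 0.01.

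Ty1, with 60 genes, had the highest sums of the 4 families. It ranged from 638 to 694 CPM without and from 627 to 938 CPM with metformin in exponential cultures. In stationary cultures it ranged from 1724 to 2411 and from 2172 to 3402 CPM. Its groups overlapped in both phases, and its main log2 fold change was 0.27 (SE 0.12, unadjusted p = 0.0397, adjusted p = 0.9999, edgeR; exact permutation p = 0.0771). Ty3 stood at 0.15 (SE 0.10, exact permutation p = 0.190) and, without exp_metformin 4, at 0.065, while Ty4 stood at 0.11 (SE 0.07, exact permutation p = 0.147). Ty4 was at 26.3 to 27.5 CPM in stationary cultures without metformin and 30.5 to 34.0 CPM with it, which did not overlap, and at 16.3 to 20.97 and 18.2 to 21.8 CPM in exponential cultures, which did. No family passed the test.

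Ty1 was highest in exponential metformin library 4 and stationary metformin library 3 of their phases. The former had the high share of 15S rRNA and the latter the lowest scaling factor, and without each in turn the Ty1 effect was 0.19 and 0.19 and the Ty2 effect 0.21 and 0.20. The part of these library properties in the Ty values was not tested.

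**Figure D3:**
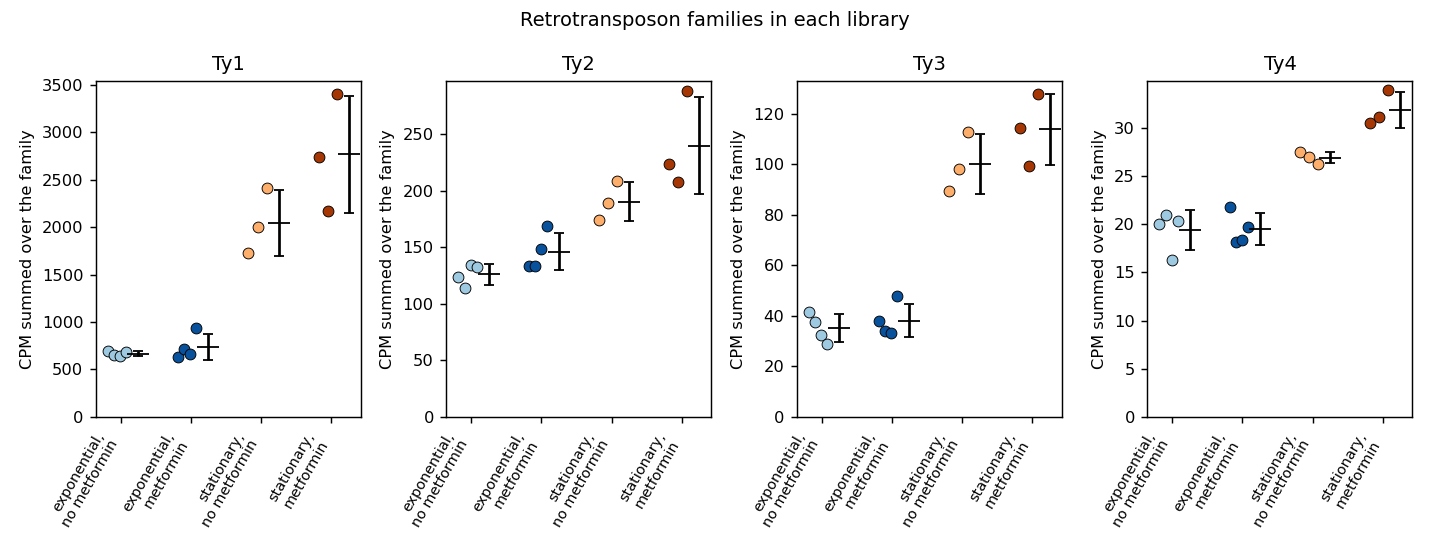
Counts of the genes of each Ty family summed and given in CPM, for exponential and stationary cultures without and with metformin (n = 4, 4, 3 and 3); points are libraries, and horizontal marks with bars are means ± SD, on axes that start at 0. Metformin means lie above control means in each phase for all 4 families, with overlap of the libraries except for Ty4 in stationary cultures.

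Other lists had small medians. Fatty acid synthesis and desaturation had 14 of 14 members with a positive main log2 fold change, a median of 0.14, and 10 positive in both phases. FAS2 and FAS1, the subunits of fatty acid synthase, stood at 0.20 (SE 0.08) and 0.09 (SE 0.08). ACC1, the acetyl-CoA carboxylase that commits carbon to lipids, stood at 0.19 (SE 0.10), and the desaturase OLE1 at 0.10 (SE 0.08). Cytosolic ribosomal proteins had 114 of 138 members negative in both phases, where 21.6% of all genes were, with a median of -0.08, which was -0.027 without stat_control 3 and -0.054 without stat_metformin 1. Nuclear-encoded subunits of oxidative phosphorylation had 28 of 40 negative in both phases and a median of -0.10, the lowest of the 44 lists, which was -0.052 without stat_control 3 and -0.062 without stat_metformin 2. COX4, a subunit of cytochrome c oxidase, stood at -0.18 (SE 0.09). Mitochondrially encoded subunits stood at 0.12, with 6 of 6 positive, and split by phase into -0.03 in exponential and 0.31 in stationary cultures, with a main median of 0.062 without stat_control 1 and 0.069 without stat_metformin 3. Among libraries of a group, the median deviation from the group mean had an SD of 0.11 for fatty acid genes and 0.14 for cytosolic ribosomal proteins. It was 0.17 for nuclear-encoded and 0.18 for mitochondrially encoded subunits. No member of these lists was called.

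Some lists took opposite signs in the phases, which the main effect averages. Heat shock chaperones stood at medians of -0.09 and 0.28, ribosome biogenesis at 0.06 and -0.09, and hexose transporters at 0.36 and -0.09 in exponential and stationary cultures. Among libraries of a group, the median deviation of these lists from the group mean had an SD of 0.27, 0.18 and 0.28 in that order. The signs within phases were not tested. Their main medians were 0.07, -0.01 and 0.06, and each changed sign without some single libraries, with ranges of -0.032 to 0.14, -0.054 to 0.040 and -0.040 to 0.15. The Snf1 pathway stood at 0.02, and signalling by TOR, Sch9 and Ras-PKA at 0.05. None of these lists had a called member.

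**Figure D4:**
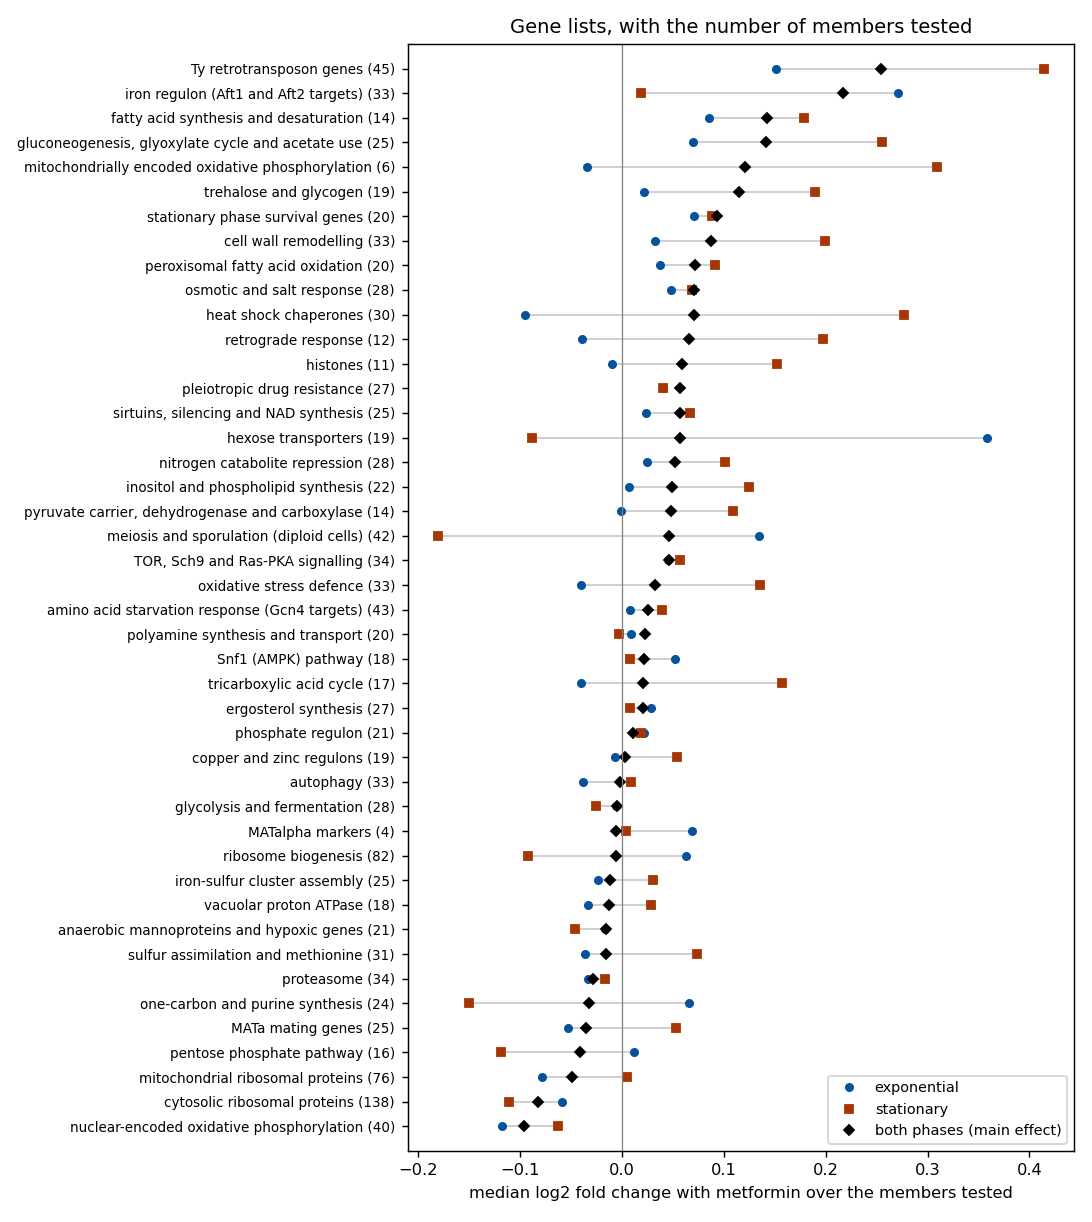
Median log2 fold change with metformin over the tested members of 44 gene lists, in exponential cultures, in stationary cultures and in the main effect, with the number of members tested after each name. Ty genes at 0.25 and the iron regulon at 0.22 lead the main effect, and nuclear-encoded oxidative phosphorylation at -0.10 is lowest.

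Gene length moved with these signs. Over 5856 protein-coding genes the Spearman correlation between annotated span and the main log2 fold change was 0.34, with 0.44 in exponential and 0.11 in stationary cultures, as a description across genes. Of 804 genes under 500 bases, 36.9% were positive in the main effect, and of 236 genes of 4000 bases or more, 92.8% were. The medians of these sets were -0.03 and 0.10. Ty genes had a median span of 5269 bases and fatty acid genes of 2094 bases, while nuclear-encoded oxidative phosphorylation genes had 402 bases and cytosolic ribosomal protein genes 771 bases. Without Ty genes, 180 of 196 genes of 4000 bases or more were positive (91.8%), with a median of 0.09. ADY2 spans 852 bases, and genes from 500 to under 1000 bases had a median of -0.01.

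The balance between long and short genes differed among libraries of the same group. Measured per library as the median deviation of genes of 4000 bases or more from their phase mean, minus that of genes under 500 bases and without Ty genes, it was -0.16, -0.13, 0.09 and -0.17 in exponential cultures without metformin and -0.18, -0.01, 0.20 and 0.30 with it, on a log2 scale. In stationary cultures it was -0.0018, 0.09 and -0.15 without and -0.05, 0.22 and -0.13 with metformin. The groups overlapped in both phases. The difference was 0.17 in exponential and 0.03 in stationary cultures, and the exact permutation test within phases gave p = 0.261, two-sided. Exponential metformin library 4, which had the highest Ty1 level of its phase, also had the highest value here. The part of gene length in the list medians was not tested.

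**Figure D5:**
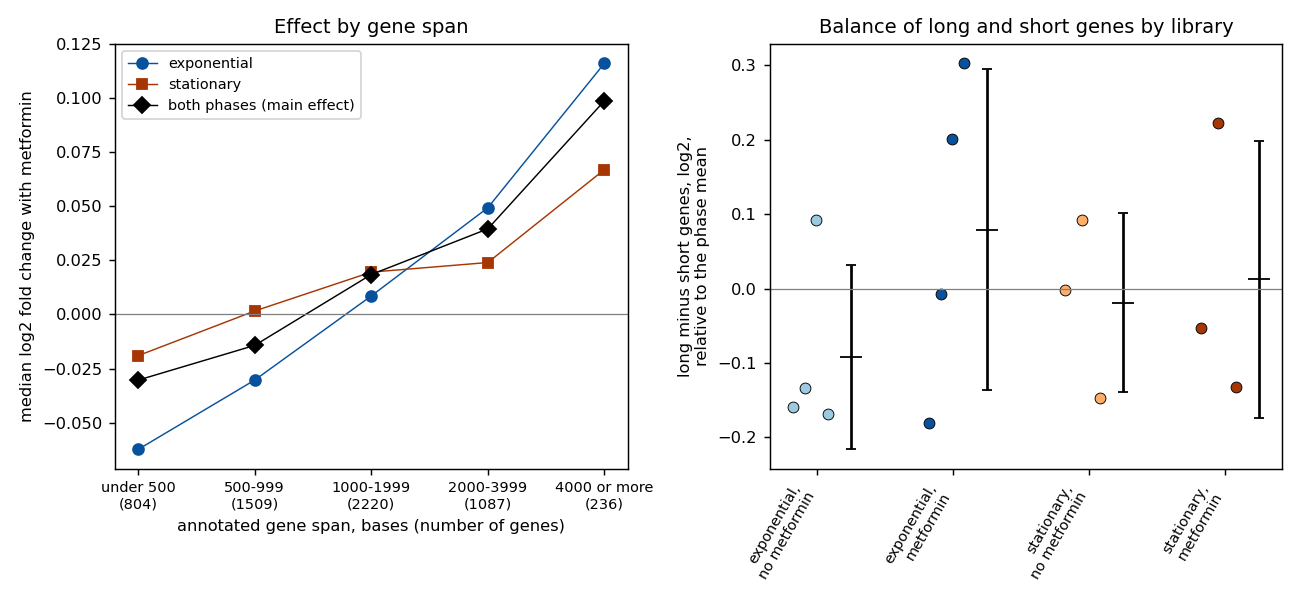
Left, median log2 fold change with metformin of protein-coding genes by annotated span in bases, with the number of genes under each class, in each phase and in the main effect; right, the log2 balance of long against short genes in every library relative to its phase mean, with means ± SD (n = 4, 4, 3 and 3). Medians run from -0.03 under 500 bases to 0.10 at 4000 bases or more in the main effect, and the libraries of the groups overlap.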

How the data were processed

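RNA of 14 yeast samples was depleted of ribosomal RNA and sequenced as directional libraries, per the labels' protocols. It was analysed from the deposited table of raw counts per gene. Reads were processed with STAR, SAMtools and HTSeq per the submitters' processing notes, with versions, genome build, annotation and strand setting not given in the sources used here. The 5 summary rows, 6.12% to 10.1% of reads, were left out of library sizes and tests. All 6470 identifiers matched locus tags of R64, which gave names, spans and sequences.

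Features were filtered with filterByExpr (minimum count 10, minimum total 15), normalised by TMM and tested in edgeR 4.0.16 under R 4.3.3 (quasi-likelihood, phase and metformin as additive terms, Benjamini-Hochberg over 6097 features, threshold 0.05). Effects within phases and their difference came from a model of the 4 groups. The biological coefficient of variation was 15.0%. Exact permutation tests shuffled metformin labels within phases on log2(CPM + 0.01). Alternatives used limma 3.58.1, DESeq2 1.42.0, other scalings, a replicate block, no filter and a 1.2-fold threshold. The scripts were tested on simulated data. Replicate libraries all differed by more than sampling noise.

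The named genes are every called gene and, up to 20, those of lowest p, with called genes of the difference, and paralogs of called genes. Members, lists, rules and motifs were chosen with earlier results of these data known. The total-count scaling, the block within phases and the gene span comparison, with counts offset by 0.5, were added after the values were seen.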

Additional observations from a re-analysis of the deposited data

Results flagged for a closer look

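Of 66 groups of 4 libraries looked at among the named genes and Ty families, 5 held a library that stood apart from the other 3 by more than Dixon's 95% limit, where chance gives about 1 in 20. DIN7 was low in exp_metformin 1, at 9.61 CPM against 11.8 to 12.0 CPM in the others. YLR108C was high in exp_metformin 1, at 34.8 CPM against 26.9 to 27.7 CPM. PUT4 was high in exp_control 2, at 3.52 CPM against 1.99 to 2.21 CPM. TRR1 was high in exp_control 3, at 308 CPM against 275 to 279 CPM. ARN2 was low in exp_metformin 3, at 56.4 CPM against 73.8 to 74.6 CPM.

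TRR1, the thioredoxin reductase gene, had a metformin effect that differed between phases by 1.11 on the log2 scale, stationary minus exponential (adjusted p = 0.0243, edgeR). In stationary cultures all 3 metformin libraries lay above all 3 controls, and in exponential cultures the groups overlapped. The call was lost without most single libraries and with total counts in place of TMM (adjusted p = 0.137, edgeR).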

How the results depend on the processing

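The single call of the main effect, ADY2, was kept under RLE, upper-quartile and total-count scaling, without the filter, with DESeq2 and limma-voom, and without each library in turn, with counts of 1 to 1 and log2 fold changes of 0.83 to 0.96 for the libraries left out. The average of the phases in the 4-group model called 2 genes, ADY2 and TRR1 (0.49, adjusted p = 0.0435). The test against a 1.2-fold change called 0 (ADY2 adjusted p = 0.0569). With a replicate block of phase and number the count was 0 (ADY2 0.88, adjusted p = 0.176), and with a block of the number alone it was 0 (ADY2 0.89, adjusted p = 0.0713). Same-numbered libraries correlated at -0.02 to 0.84 over 7 pairs, 6 of them above 0.1, and 10 of 14 libraries correlated best with their own number, with all 3 stationary pairs above it (0.20 to 0.49) and exponential number 2 at -0.02. No label says what a number marks, and the stationary count columns of both treatments are numbered 1, 2 and 5. Exponential numbers 1, 3 and 4 stood at 0.44, 0.84 and 0.24, and pairing is therefore possible in both phases. With the block 4 genes were called in exponential and 10 in stationary cultures, against 6 and 3 without it. For the difference between phases the count of calls was 2 with total counts, 12 with DESeq2 and 0 with the replicate block, and 0 to 16 without single libraries, with 3 without exp_metformin 3 and 16 without stat_control 3. The TRR1 difference was 0.92 with total counts (adjusted p = 0.137) and 1.10 with the block (adjusted p = 0.0542), and 1.03 to 1.25 without single libraries. ATO2 ran from -0.069 to 0.19 without single libraries, at -0.055 without exp_control 3 and -0.069 without exp_metformin 1. The 4 Ty families kept positive values below the threshold, from 0.065 (Ty3) up without single libraries. Total counts moved the stationary median of all genes from 0.01 to -0.13 and the share of genes positive in both phases from 28.3% to 12.3%, with 29.7% negative in both, so small list medians hold only relative to it. The small medians of the inositol, oxidative stress, Snf1 and TOR lists also moved by over 1.5 times without single libraries. ADY2 rests on 44 to 136 reads in each exponential library. The cause of these changes was not tested.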
